A study of Rattus with 6 samples.

Results

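The interleukin-6 family was followed in mesenchymal stem cells of rat bone marrow, stromal cells able to form bone, fat and cartilage, after culture with dexamethasone, a synthetic glucocorticoid. It was taken as 10 genes of the 30211 in the counts table, matched by symbol: the ligands Il6, Il11, Lif and Clcf1, the receptors Il6r, Il11ra1, Lifr, Osmr and Il6st, and the feedback inhibitor Socs3. RNA was sequenced from 3 libraries of wild-type rat cells kept for 4 days with 100 uM dexamethasone and from 3 libraries of wild-type rat cells kept for 4 days without it. The sources used here do not state the strain, the age and number of animals, the culture medium or whether controls received vehicle. Nor do the labels state whether replicates came from separate animals or dishes; a p-value here reflects the spread of these libraries alone, and that spread may be technical.

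Cytokines of the interleukin-6 family act through a shared receptor chain, gp130, which Il6st encodes. Interleukin-6 and interleukin-11 bind their own receptor chains (Il6r and Il11ra1) before they engage gp130, whereas leukaemia inhibitory factor pairs gp130 with the Lifr product and oncostatin M pairs it with the Osmr or Lifr product. The receptor complexes activate JAK kinases and the transcription factor STAT3, and SOCS3, itself a STAT3 target, binds gp130 and limits the signal. Marrow stromal cells are a known source of interleukin-6, interleukin-11 and leukaemia inhibitory factor, which act on blood-forming and bone cells.

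Library totals ranged from 34835072 to 41676315 counts. The glucocorticoid-induced genes Fkbp5, Tsc22d3 and Per1 were higher in 3 of 3 dexamethasone libraries, by 4.30, 2.88 and 1.63 on the log2 scale. All 11 stromal markers in the table were tested, of which 4 rose, 6 fell and 1 was not called, where 32.3% of all tested genes rose and 31.7% fell. The stromal list summed to 10320 to 10670 CPM in dexamethasone libraries and 8232 to 8341 CPM in control libraries (counts brought to 1 library size with TMM). Col3a1 and Vim, which rose, carried much of that sum (4345 and 2731 CPM with dexamethasone, 1996 and 1112 CPM in controls), while Prrx1 and Pdgfrb fell (log2 -3.27 and -2.17). Exons of Col3a1 overlap AABR07067556.1, so some of its reads could not be assigned with certainty. Of 18 macrophage markers, which include genes of cells that also make interleukin-6, 7 were tested. Of these, 0 rose, 4 fell and 3 were not called, where 31.7% of all tested genes fell. The macrophage list summed to 9.16 to 9.87 CPM with dexamethasone and 13.2 to 14.1 CPM in controls. Cd14, which was not called, made up most of that sum, at 7.64 CPM with dexamethasone and 7.27 CPM in controls. The macrophage markers that fell were Cd74, at 0.139 CPM with dexamethasone and 1.74 CPM in controls, Cd53, at 0.127 and 1.40 CPM, Lyz2, at 0.133 and 0.467 CPM, and Cd68, at 0.509 and 1.21 CPM. The dexamethasone means of Cd74, Cd53 and Lyz2 lay below the level of 6 counts (0.142 to 0.170 CPM by library) and so rest on few reads. The macrophage genes Adgre1, Tyrobp, Laptm5, C1qa, C1qb and Cd163 had no count in any library. Endothelial markers summed to at most 2.02 CPM with dexamethasone and 2.10 CPM in controls, with 1 of 2 tested higher (Tek, log2 0.81) and 1 lower (Vwf, log2 -2.15). The call of Tek was lost against a fold of 1.5 (adjusted p = 0.312 in edgeR), without control replicate 3 (0.0852) and without dexamethasone replicate 1 (0.0512). Lymphocyte markers summed to at most 0.345 CPM with dexamethasone and 0.304 CPM in controls, with 0 tested. The part of these cells in the results was not tested.

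Of the 10 family genes, 9 passed the filter on low counts, and all 9 differed between dexamethasone and control libraries, with 8 lower and 1 higher. The call required an adjusted p under 0.05 from the quasi-likelihood test of edgeR, with p-values adjusted by Benjamini-Hochberg over all 14111 tested genes. By that rule 64.0% of all tested genes were called, so a call alone does not set the family apart. A change of at least 2-fold was found for 4 of the 9, the 4 ligands, against 15.6% of all tested genes. The 9 genes had a median log2 fold change of -0.48, against -0.00019 over all tested genes. Libraries of the groups did not overlap for these 9 genes, nor for 66.9% of all tested genes. In bulk RNA, fewer cells making a transcript and less transcript per cell cannot be told apart.

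**Figure D1:**
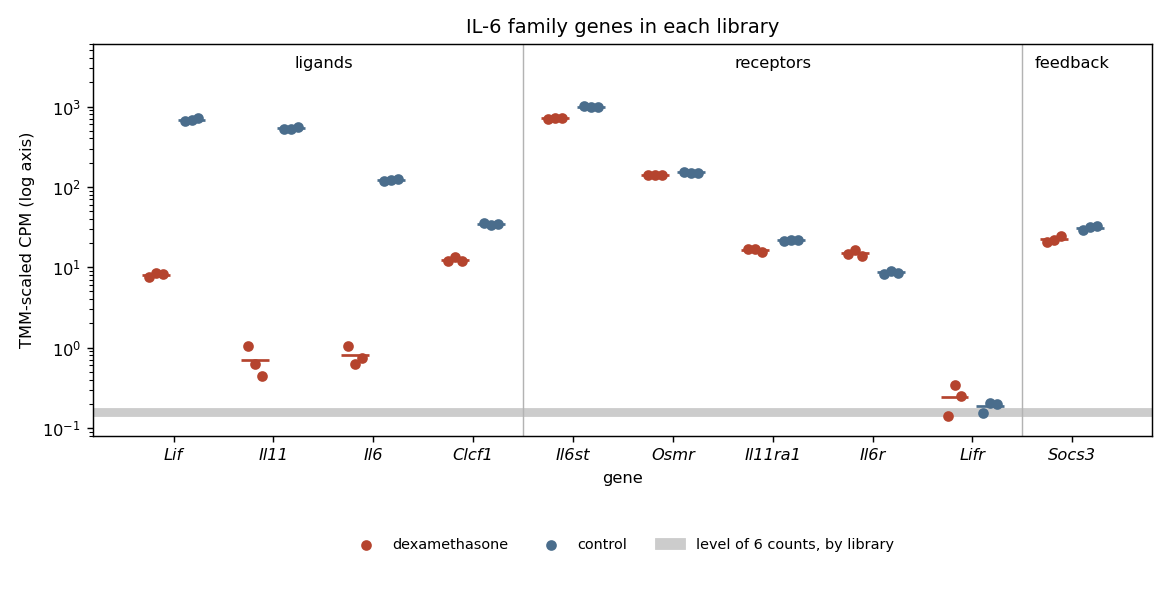
TMM-scaled CPM (log axis) of the 10 genes in each library, with 3 dexamethasone libraries left of 3 control libraries for each gene; points are libraries, short lines are group means and the grey band is the level of 6 counts, by library. Lif, Il11 and Il6 lie at 0.443 to 8.51 CPM with dexamethasone and at 117 to 726 CPM in controls, the receptors and Socs3 move little, and Lifr lies at or just above the band in both groups.

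The ligands held the largest changes of the family. Il11, which encodes interleukin-11, a cytokine that acts on megakaryocyte and bone cell formation (chromosome 1, 72635267 to 72643255, plus strand), had 44, 22 and 18 counts in dexamethasone replicates 1 to 3, against 20477, 21017 and 22257 counts in control replicates 1 to 3. These counts were 1.04, 0.624 and 0.443 CPM with dexamethasone and 531, 532 and 556 CPM in controls. Every dexamethasone library was therefore above the floor of 6 counts (0.142 to 0.170 CPM by library) and far below every control library. The log2 fold change was -9.56 ± 0.33 (SE, n = 3 each; adjusted p = 4.4e-32), and Il11 ranked 4 among the 14111 tested genes by size of fall.

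Il6 encodes interleukin-6, an inflammatory cytokine and an inducer of acute-phase proteins (chromosome 4, 3043231 to 3047807, plus strand). It had 1.04, 0.624 and 0.739 CPM in dexamethasone libraries, from 44, 22 and 30 counts, against 117, 123 and 124 CPM in control libraries. The dexamethasone level was 0.660% of the control level, a log2 fold change of -7.22 ± 0.21 (SE, n = 3 each; adjusted p = 2.4e-47). It ranked 23 by size of fall. Dexamethasone replicate 1 held the highest remaining level of both Il6 and Il11, with the same count of 44 for each.

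Lif encodes leukaemia inhibitory factor, which in mice keeps embryonic stem cells undifferentiated and which acts on bone cells (chromosome 14, 84482674 to 84500642, plus strand). It had 7.65, 8.51 and 8.13 CPM in dexamethasone libraries, against 663, 676 and 726 CPM in control libraries. Lif was the most abundant of the 4 ligands in controls by CPM. With dexamethasone its 323, 300 and 330 counts left it well above the floor, unlike the 18 to 44 counts that remained for Il6 and Il11. The log2 fold change was -6.41 ± 0.060 (SE, n = 3 each; adjusted p = 4.7e-49), which ranked 34 by size of fall.

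Clcf1 encodes cardiotrophin-like cytokine factor 1, a ligand of the ciliary neurotrophic factor receptor (chromosome 1, 219468675 to 219472654, plus strand). It fell to 11.9, 13.3 and 11.9 CPM in dexamethasone libraries, against 35.9, 33.5 and 34.8 CPM in control libraries. The groups did not overlap, and the dexamethasone level was 35.6% of the control level, a far smaller fall than those of the other 3 ligands. The log2 fold change was -1.49 ± 0.061 (SE, n = 3 each; adjusted p = 3.0e-24).

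Per kilobase of exon listed in the table (RPKM), the 4 ligands together stood at 10.3 ± 0.407 RPKM in dexamethasone libraries and 760 ± 26.1 RPKM in control libraries (SD, n = 3 each). Their proportions differed as well. Clcf1 made up 53.2% ± 2.04 of the ligand sum with dexamethasone and 2.03% ± 0.107 in controls, since it fell least. Lif made up 35.3% ± 1.89 with dexamethasone and 40.7% ± 0.579 in controls. Il11 made up 4.02% ± 1.73 with dexamethasone and 42.01% ± 0.403 in controls, and Il6 made up 7.46% ± 2.05 with dexamethasone and 15.3% ± 0.347 in controls. In RPKM, Il11 stood at 0.371 to 0.618 times Il6 in dexamethasone libraries and at 2.67 to 2.80 times Il6 in control libraries, ranges that do not overlap. In dexamethasone replicates 1 and 2 the genes had equal counts, so their ratio in those libraries is the ratio of exon lengths, and the RPKM values of the genes overlapped between dexamethasone libraries. The difference between the genes' falls was not tested.

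**Figure D2:**
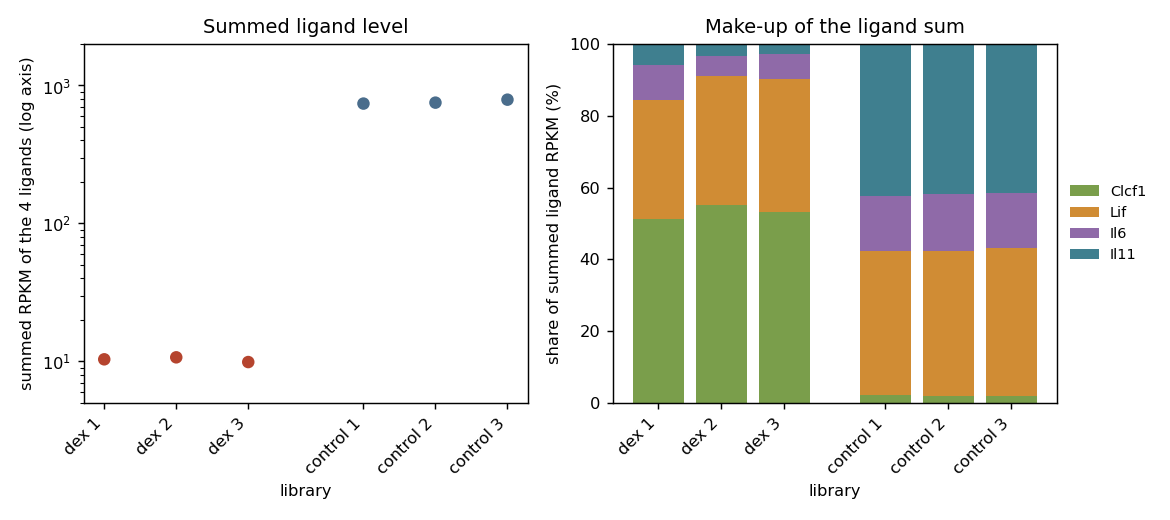
Summed RPKM of Il6, Il11, Lif and Clcf1 in each library (left, log axis) and the share of each gene in that sum in % (right), for dexamethasone replicates 1 to 3 and control replicates 1 to 3. The sum averages 10.3 RPKM with dexamethasone and 760 RPKM in controls, and Clcf1 makes up 53.2% of the dexamethasone sum and 2.03% of the control sum.

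The receptors changed much less than the ligands, and not all in the same direction. Il6r, which encodes the receptor chain that binds interleukin-6 (chromosome 2, 189205701 to 189254628, minus strand), was the member that rose. It had 14.8, 16.4 and 13.7 CPM in dexamethasone libraries, against 8.30, 9.04 and 8.59 CPM in control libraries. All 3 dexamethasone libraries lay above all 3 control libraries, and the fold was 1.73 (log2 0.79 ± 0.082 SE, n = 3 each; adjusted p = 6.7e-11). The rise was also called against a fold of 1.5 (adjusted p = 0.0149).

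Il6st, the gene of the shared chain gp130 (chromosome 2, 44289393 to 44314944, plus strand), was the most abundant receptor gene in both groups. It had 705, 718 and 722 CPM in dexamethasone libraries, against 1004, 987 and 987 CPM in control libraries. The dexamethasone level was 72.0% of the control level (log2 -0.47 ± 0.013 SE, n = 3 each; adjusted p = 3.3e-21). Il11ra1, which encodes the receptor chain for interleukin-11 (chromosome 5, 58151985 to 58159072, plus strand), had 16.7, 16.6 and 15.6 CPM with dexamethasone, against 21.2, 21.8 and 21.6 CPM in controls. Both genes were lower in every dexamethasone library, Il11ra1 at 75.7% of the control level (log2 -0.40 ± 0.035 SE, n = 3 each; adjusted p = 1.1e-06). Exons of Il11ra1 overlap Ccl27 on the opposite strand, which held 11 counts with dexamethasone and 33 in controls, and the sources used here do not state whether counting used strand.

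Osmr, which encodes the oncostatin M receptor chain (chromosome 2, 56110777 to 56151531, minus strand), had 141 ± 0.250 CPM in dexamethasone libraries and 151 ± 2.80 CPM in control libraries (SD, n = 3 each). The groups did not overlap, since dexamethasone libraries reached 140.9 CPM at most and control libraries 148.9 CPM at least. The difference was nevertheless small, a log2 fold change of -0.11 ± 0.015 (SE, n = 3 each; adjusted p = 0.0028), with a 95% interval of -0.17 to -0.043 in limma-voom. With library size alone in place of TMM, the log2 fold change was -0.069 (adjusted p = 0.048 in edgeR).

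Lifr, which encodes the leukaemia inhibitory factor receptor (chromosome 2, 56426367 to 56489415, plus strand), was near the limit of detection. It had 6, 12 and 10 counts in dexamethasone libraries and 6, 8 and 8 counts in control libraries. Both groups sat at or just above the floor, overlapped, and did not pass the filter on low counts. Taken as 14 read pairs with dexamethasone and 11 in controls, the ratio was 1.31 with an exact 95% binomial interval of 0.551 to 3.18, which covers counting error only. A change of Lifr within that interval was therefore not detectable at this depth.

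Socs3, the feedback inhibitor that binds gp130 and JAK kinases (chromosome 10, 106975178 to 106976040, minus strand), had 20.8, 21.9 and 24.6 CPM in dexamethasone libraries, against 29.2, 32.0 and 32.3 CPM in control libraries. The groups did not overlap, and the dexamethasone level was 71.9% of the control level (log2 -0.48 ± 0.085 SE, n = 3 each; adjusted p = 7.6e-09). Socs3 thus stood at about the same share of its control level as Il6st.

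The smaller falls rest on the close agreement of these replicates, whose common coefficient of variation was 3.66%. With the coefficient of variation set to 0.2 for every gene, the falls of Il6st (adjusted p = 0.138), Il11ra1 (0.242), Osmr (0.824) and Socs3 (0.142) were not called by edgeR, nor were they against a fold of 1.5 (adjusted p = 1 for each). Il6, Il11, Lif, Clcf1 and Il6r were called under both settings, which called 26.2% and 20.0% of all tested genes.

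**Figure D3:**
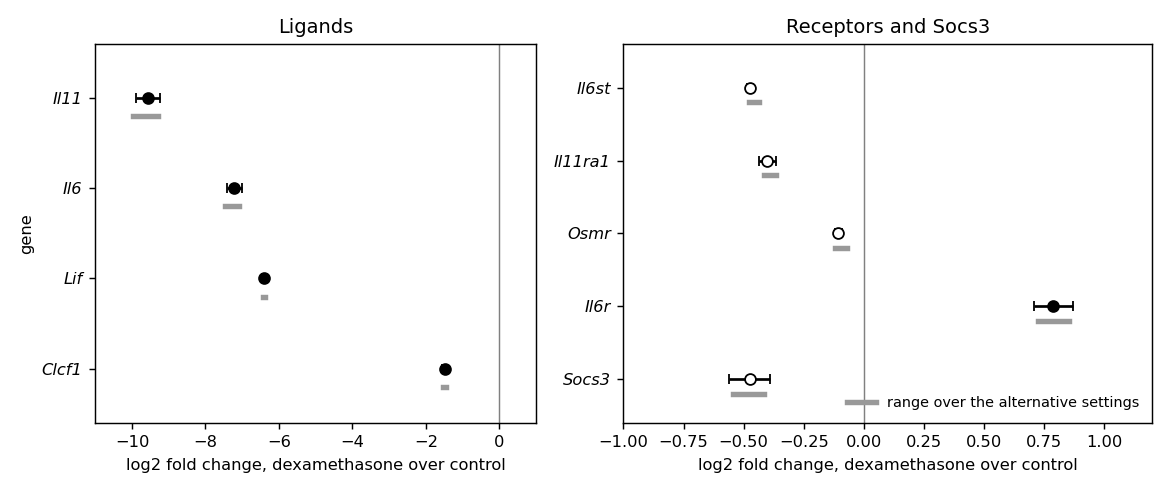
Log2 fold change of dexamethasone over control for the 4 ligands (left) and for the receptors and Socs3 (right, wider scale); points with SE bars are the values reported, grey bars are the range over the 15 alternative settings. Filled points (Il11, Il6, Lif, Clcf1 and Il6r) were called under both strict settings, with a coefficient of variation of 0.2 and against a fold of 1.5, and open points (Il6st, Il11ra1, Osmr and Socs3) under neither; Il6r alone lies right of 0.

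In order of level, and on the scale of RPKM, dexamethasone libraries had Il6st at 230, Osmr at 48.6, Socs3 at 26.0, Il11ra1 at 9.52, Clcf1 at 5.48, Lif at 3.64, Il6r at 3.25, Il6 at 0.767, Il11 at 0.416 and Lifr at 0.0451. Control libraries had Il11 at 319.2, Il6st at 319.0, Lif at 309, Il6 at 116, Osmr at 52.3, Socs3 at 36.1, Clcf1 at 15.4, Il11ra1 at 12.6, Il6r at 1.88 and Lifr at 0.0345. Libraries of neighbours in these orders overlapped for Lif with Il6r and for Il6 with Il11 in the dexamethasone order, and for Il11 with Il6st and for Il6st with Lif in the control order. Lif and Il11 thus stood level with the gp130 gene in controls, at or above the 98.3 percentile of tested genes by RPKM, and at the 36.2 and 10.03 percentile with dexamethasone. RPKM depends on the exons listed, and Socs3 has a single listed exon of 863 bases.

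Other ligands and receptors of the family were scarce. Of 8 further ligand genes in the table, 4 were tested, of which 0 rose, 1 fell and 3 were not called, where 31.7% of all tested genes fell. Cntfr, a receptor chain through which the Clcf1 product acts, had 2 counts with dexamethasone and 0 in controls. Osm, which encodes oncostatin M, had 2 counts with dexamethasone and 4 in controls, and Il31ra, a receptor of the family that pairs with the Osmr product, had 0 and 2 counts, all under the floor of 6. Of 5 further receptor genes, 2 were tested, of which 1 fell and 1 was not called, where 31.7% of all tested genes fell. The gene that fell was Il12rb2, a chain of the interleukin-12 receptor (log2 -0.92 ± 0.14 SE). Its call was lost against a fold of 1.5 (adjusted p = 0.111 in edgeR).

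Genes that carry the gp130 signal were abundant and moved both ways. Of 18 tested, 8 rose, 3 fell and 7 were not called, where 32.3% of all tested genes rose and 31.7% fell, and the median log2 fold change was 0.066. Jak2, a kinase bound to the receptor chains, rose to 402 CPM with dexamethasone, against 136 CPM in controls (log2 1.57 ± 0.033 SE). Hras, a GTPase of the pathway, rose by 0.63 on the log2 scale. Map2k1, a kinase of the MAP kinase arm, fell to 134 CPM with dexamethasone, against 237 CPM in controls (log2 -0.82 ± 0.023 SE). Adaptors Shc1 and Grb2 fell slightly (log2 -0.16 and -0.10). Shc1, Grb2 and Hras were not called against a fold of 1.5 (adjusted p = 1, 1 and 0.299 in edgeR), and Grb2 was not called with library size alone (0.160), without control replicate 2 (0.0686) or 3 (0.0508), or without dexamethasone replicate 3 (0.168). Stat3 and Jak1, singled out after their values were seen, stood at 273 and 405 CPM with dexamethasone and at 278 and 420 CPM in controls and were not called (adjusted p = 0.5003 and 0.0833 in edgeR).

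Brakes on the pathway other than Socs3 also moved both ways. Of 14 tested, 6 rose, 2 fell and 6 were not called, where 64.0% of all tested genes were called, with a median log2 fold change of 0.18. Socs5, another member of the SOCS family, fell to 102 CPM with dexamethasone, against 243 CPM in controls (log2 -1.25 ± 0.020 SE). Ptpn2, a phosphatase that acts on JAK and STAT proteins, fell by 0.83 on the log2 scale. Dusp1, a phosphatase of MAP kinases and a known glucocorticoid target, rose to 29.2 CPM with dexamethasone, against 13.5 CPM in controls (log2 1.11 ± 0.053 SE). Ptpn6 and Ptpn1, which encode tyrosine phosphatases, rose by 0.99 and 0.50, and the call of Ptpn1 was lost at a coefficient of variation of 0.2 (adjusted p = 0.111 in edgeR).

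**Figure D4:**
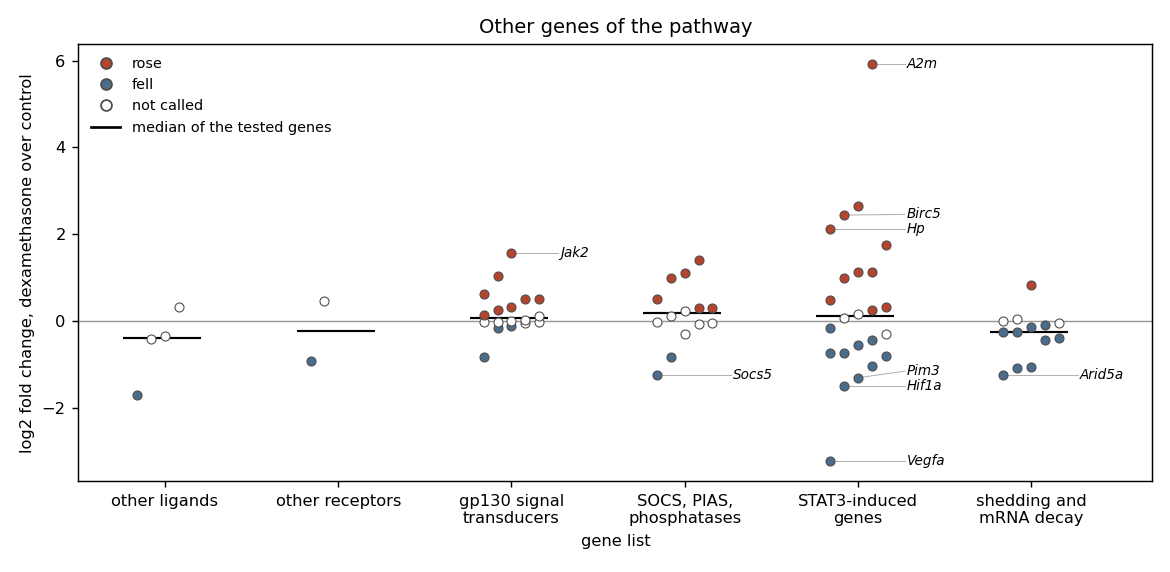
Log2 fold change of dexamethasone over control for the tested genes of 6 lists around the family, a point per gene, filled where called (red rose, blue fell), with the median of each list as a black line; labels mark some of the larger changes. Each list but those of other ligands and other receptors holds both rises and falls, with list medians between -0.39 and 0.18.

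Genes known to be induced by STAT3 did not move one way. Of 24 tested, 11 rose, 10 fell and 3 were not called, where 32.3% of all tested genes rose and 31.7% fell, and the median log2 fold change was 0.12. Of these genes, 7 rose and 4 fell at least 2-fold, where 15.6% of all tested genes changed by that much in either direction. A2m, the alpha-2-macroglobulin gene and a major acute-phase gene of the rat, had 389 counts with dexamethasone and 6 in controls, a ratio of 65.0 (exact 95% binomial interval 21.9 to 318, counted in read pairs). Hp, which encodes the acute-phase protein haptoglobin, had 53.1 ± 2.35 CPM with dexamethasone and 12.2 ± 0.661 CPM in controls (SD, n = 3 each). Birc5, which encodes survivin and is also a gene of dividing cells, rose by 2.44 on the log2 scale. Vegfa, which encodes a vascular growth factor, fell to 173 ± 4.95 CPM with dexamethasone, against 1628 ± 6.08 CPM in controls (log2 -3.23 ± 0.024 SE). Hif1a, a hypoxia-inducible factor subunit, and Pim3, a kinase, fell by 1.49 and 1.31 on the log2 scale.

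Regulators of receptor shedding and of Il6 messenger RNA were mostly lower. Of 13 tested, 1 rose, 9 fell and 3 were not called, where 31.7% of all tested genes fell, with a median log2 fold change of -0.24. The gene that rose was Zfp36, which encodes tristetraprolin, a protein that speeds the decay of cytokine messenger RNAs, at 27.9 CPM with dexamethasone and 15.6 CPM in controls (log2 0.84 ± 0.044 SE). Arid5a, whose product stabilises Il6 messenger RNA, fell to 10.9 CPM with dexamethasone, against 25.7 CPM in controls (log2 -1.24 ± 0.063 SE). Zc3h12a, whose product cleaves Il6 messenger RNA, also fell (log2 -1.07 ± 0.029 SE), as did Rhbdf2, whose product is a partner of the shedding protease ADAM17 (log2 -1.07 ± 0.083 SE). At a coefficient of variation of 0.2, edgeR called 4 of these 13 genes: Zfp36, which rose, and Arid5a, Zc3h12a and Rhbdf2, which fell. It also called 5 of the 14 brakes, 4 of the 18 signal transducers and 15 of the 24 STAT3-induced genes. That setting called 26.2% of all tested genes.

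The nearest tested gene on each side of each family gene was examined along the chromosomes of the table. Among the 18 distinct neighbours outside the family, 5 rose, 8 fell and 5 were not called, where 64.0% of all tested genes were called, with a median log2 fold change of -0.11. Il11 lay among genes that fell strongly. Fam71e2, 1.08 kb away at higher coordinates on the same strand, had no count with dexamethasone and 6.16 ± 0.321 CPM in controls. That is at least 121-fold lower by a floor of 6 counts over the group. Il11 itself stood at 540 CPM in controls, and whether the reads assigned to Fam71e2 came from its own transcript was not tested. Tmem190, 3.08 kb away at lower coordinates on the opposite strand, had 5 counts with dexamethasone and 129 in controls, a ratio of control to dexamethasone of 22.0 (exact 95% binomial interval 7.21 to 109). Gdnf, the nearest tested gene beyond Lifr and at the same time beyond Osmr on that side, 399 kb from Lifr, encodes a neurotrophic factor and fell by 2.82 on the log2 scale, and Ankrd55, 92.8 kb from Il6st, fell by 1.75. Birc5, 111 kb from Socs3 at lower coordinates, rose by 2.44 on the log2 scale. The neighbours of Lif, Castor1 and Mtmr3, were higher by 0.62 and 0.31 on the log2 scale. Those calls were lost at a coefficient of variation of 0.2 (adjusted p = 0.0805 and 0.396 in edgeR) and against a fold of 1.5 (0.735 and 1), and that of Castor1 also without control replicate 1 (0.0715).

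Genes with the pattern most like those of Il6, Il11 and Lif were picked among 9020 genes averaging 5 CPM or more. The measure was the Euclidean distance between log2 CPM values centred over the 6 libraries. Since replicates agreed closely, this distance depends largely on the difference between the groups. It picks genes with a similar fall and cannot show that genes vary together. Nearest to Il6 were Ptgs2, the inducible prostaglandin synthase (distance 0.343), Il23a, a subunit of interleukin-23 (0.634), and the chemokine gene Cxcl6 (0.669). Ptgs2 had 12.1 ± 1.43 CPM with dexamethasone and 1595 ± 12.3 CPM in controls (SD, n = 3 each). Among those nearest to Lif were the chemokine genes Ccl2 (0.488) and Cxcl6 (0.538). Nearest to Il11 were Cxcl2, Nos2 and Il1a, at larger distances of 1.47, 1.96 and 2.08. With dexamethasone these genes stood at 0.0426, 0.179 and 0.209 CPM, below or just above the floor of 0.142 to 0.170 CPM. Their distances therefore rest on few reads in the dexamethasone libraries.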

How the data were processed

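The authors deposited read counts per gene for the 6 libraries in 1 table, with exon coordinates and lengths, per the file headers. The sources used here name no aligner, counting program or strand setting. Per the submitters' processing notes the build was mm10, a mouse build, but the table holds rat genes: 17432 of 30211 symbols were in a rat RefSeq gene table (GRCr8), 877 genes lay on chromosome 20, and all 10 family genes matched in symbol and chromosome. Coordinates are therefore the table's own, in a rat build that these sources do not name. Groups follow the titles, since the treatment tag reads DEX for all 6 samples. No column of another sample was present.

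Counts were filtered with filterByExpr (14111 kept, 16100 left out), scaled by TMM, then tested in edgeR 4.0.16 under R 4.3.3 (robust quasi-likelihood, no covariate, Benjamini-Hochberg). Folds are dexamethasone over control. Standard errors come from the SD of replicate log2 CPM values, with a prior count of 2. RPKM is TMM-scaled CPM per kilobase of listed exon. Of 28996 values from 1 to 30 counts, 69.4% were even, against 50.6% of values of at least 1000, so 6 counts, taken as 3 read pairs, served as the floor, and intervals used counts divided by 2 and rounded up. Without molecular identifiers, reads can be copies of a single molecule, so floors and intervals cover counting error only. limma 3.58.1 and DESeq2 1.42.0 gave alternatives.

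The family genes and the lists, written from general knowledge, were chosen with earlier results of these data known. In each list the called genes with the 3 largest rises and falls and a mean of at least 1 CPM are named (some genes that this rule picks are not reported here), then nearest tested neighbours with conventional symbols, then the 3 nearest patterns of Il6, Il11 and Lif. Other genes are named for their low counts or as stated. The scripts were tested on simulated data.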

Additional observations from a re-analysis of the deposited data

How the results depend on the processing

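Under 15 alternative settings, none of the 135 values of the 9 tested family genes changed direction, and 127 kept their call. The other 8 were the falls of Il6st, Il11ra1, Osmr and Socs3, which lost the call at a coefficient of variation of 0.2 and against a fold of 1.5. Both settings called 5 family genes, and they called 3693 and 2827 of all tested genes, against 9027. With the coefficient of variation set to 0.2, 4 signal transducers, 5 brakes, and 4 genes of shedding and messenger RNA decay were called, against 11, 8 and 10. Leaving out each library in turn, 9 family genes were called each time and 8570 to 8757 of all genes. The log2 fold change ranged from -9.99 to -9.30 for Il11 and from -7.46 to -7.08 for Il6, the genes with the fewest remaining reads. Without the filter on low counts, Lifr was not called (log2 0.37, adjusted p = 0.686 in edgeR). Deviations of same-numbered libraries from their group means had correlations of 0.0026, -0.0078 and 0.020. Counting error may dominate such deviations, so these values cannot decide whether same-numbered libraries shared an animal or a preparation. With the replicate number as a block, 8991 genes and 9 family genes were called. Depth limits what can be said of Lifr, Osm, Cntfr and Il31ra.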

Other observations

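Levels of receptor genes relative to each other were compared within each library on the RPKM scale, as values with no test. The gp130 gene Il6st stood at 64.8 to 77.9 times Il6r in dexamethasone libraries and at 161 to 179 times Il6r in control libraries, so that the gene of the interleukin-6 binding chain was less outnumbered with dexamethasone. Relative to Il11ra1, Il6st stood at 23.2 to 25.5 times with dexamethasone and 24.9 to 26.1 times in controls, ranges that overlap. Relative to Osmr, Il6st stood at 4.65 to 4.78 times with dexamethasone and 6.05 to 6.17 times in controls.

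Ligand and binding receptor were also set side by side. Il11 stood at 0.0288 to 0.0632 times Il11ra1 in dexamethasone libraries and at 24.7 to 26.0 times Il11ra1 in control libraries. Il6 stood at 0.168 to 0.310 times Il6r in dexamethasone libraries and at 60.0 to 63.6 times Il6r in control libraries. In control libraries both ligand genes were thus above the gene of their own receptor chain, and in dexamethasone libraries both were below it.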
